A study of Solanum lycopersicum x Solanum pennellii and Solanum lycopersicum with 21 samples.

Results

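The anther transcriptome of M82, the domesticated tomato parent, was described from the 6 arrays that carry its name, of 21 arrays in the series. The other 15 arrays belong to introgression lines and were not used. All 6 M82 arrays were labelled as the control or parental line and as anthers taken 1 day before the flowers opened, from plants grown in standard greenhouse conditions and treated equally. The titles call the material pollen, whereas the source name calls it anthers. The labels give no separate plants, dates or batches, so the spread between arrays may be technical.

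An anther just before opening holds mature or nearly mature pollen inside a wall whose inner layer, the tapetum, has already broken down. Pollen stores transcripts for the tube that it will grow after landing on a stigma, and its supply of sugar depends on invertases that split sucrose in the surrounding tissue. The anther wall then dries and splits along a line of weakness, the stomium, a process in which ethylene and jasmonate and enzymes that loosen cell walls are known to take part.

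Of the 10209 probe sets in the table, 108 hybridization controls and 63 reporter probe sets were left out, and 10038 were ranked by mean and by standard deviation (SD) over the 6 arrays. An informative gene symbol was available for 702 of them (6.99%), which stood for 626 genes. Values are log2 signals, so 1 unit is a doubling. A probe set's signal depends on its own affinity as well as on its transcript, and a rank by mean is therefore a rank of signal, not of transcript number. Arrays have no read depth, and the number of arrays limited the precision.

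The 6 arrays had medians of 9.53 to 9.56 and correlated with each other at 0.969 (arrays 3 and 6) to 0.996 (arrays 2 and 6) over the ranked probe sets, a description only. Array 3 stood farthest from the mean profile. It held 29.2% of the variance around that profile, and each of the other 5 arrays held at most 16.1%. Over all probe sets, 1 array stood clear of the other 5 by Dixon's ratio in 526 (5.24%), and among the 145 genes named by rule in 7 (4.83%). The values below are from all 6 arrays, and the ranks, the counts of variable probe sets and the first principal axis are also given without array 3. Leaving out 1 of 6 arrays cannot move a mean by as much as its SD, so no such check of the means is given. Of the SDs of the 145 named genes, 20 fell by more than 1.5 times without array 3. These were the SDs of ChrC, TD2, SAM1, cat1, cathDInh, ADC, CHS2, LTC, PMEU1, PME2.1, EXPA10, CEL8, AgpL1, AOC, GAI, RPL3, CHI17, PT1, RNALE and SODCP.2. The widest of them were those of CHI17, at 0.56 with array 3 and 0.22 without it, and RNALE, at 0.67 and 0.43.

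The distribution of mean signals had a low hump near 4 and a broad hump near 10. The 63 reporter probe sets, which target sequences named as reporters by their prefix, had means of 3.51 to 6.96 with a median of 4.32, and their 95th percentile of 5.51 was taken as the floor. At or below it lay 1480 of the 10038 probe sets (14.7%) and 102 of the 626 genes (16.3%). With the highest reporter as the floor the count of probe sets was 2336, and with the median reporter 498. At the other end, 391 probe sets (3.90%) and 59 genes (9.42%) had a mean above 13.

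**Figure D1:**
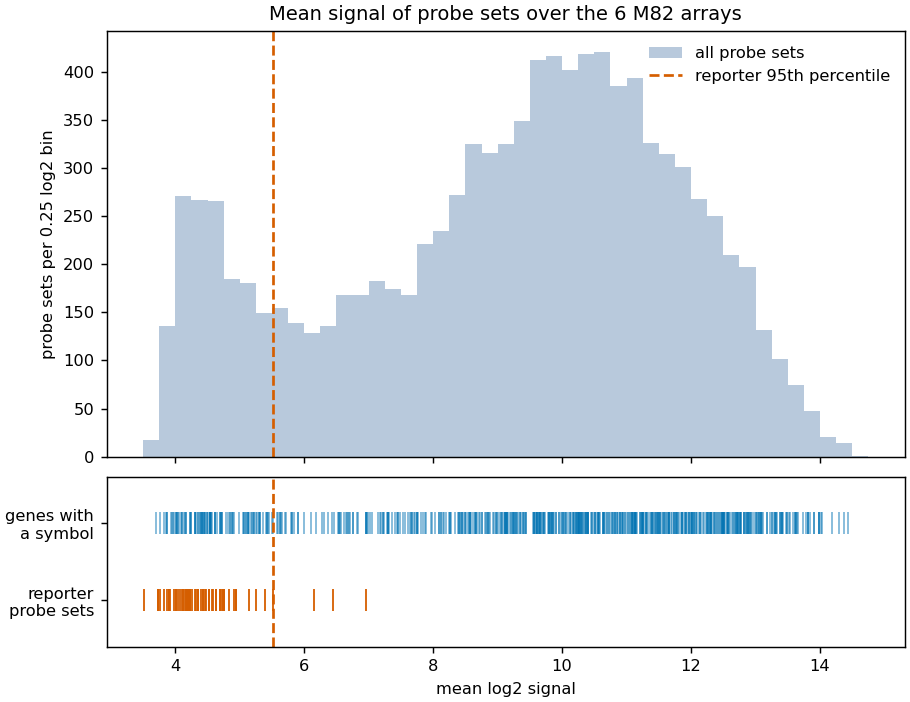
Number of probe sets in bins of mean log2 signal over the 6 M82 arrays (top), with 626 genes and 63 reporter probe sets as ticks (bottom) and the reporters' 95th percentile of 5.51 as a dashed line. Most reporters sit in the low hump, while the genes spread over both humps.

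Genes with a known role in pollen were among those with the strongest signals. Shy, a leucine-rich repeat protein of pollen that takes part in tube growth, measured 13.90, 14.06, 14.13, 14.03, 14.05 and 13.93 in arrays 1 to 6, a mean of 14.01 ± 0.08 (SD, n = 6). LIN7, a cell wall invertase of anthers and pollen, averaged 13.99 ± 0.10, with 13.85 in array 1 as its lowest value and 14.10 in array 3 as its highest. FRK4, a fructokinase known from stamens and pollen, averaged 14.19 ± 0.10 and ranged from 14.05 to 14.33. All 3 lay above 99.6% of the ranked probe sets, and in none did the arrays differ by more than 0.28.

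The receptor kinases of the pollen tube were not alike. PRK2 averaged 12.52 ± 0.25 and PRK1 12.36 ± 0.40 (SD, n = 6), and in both array 3 was highest, at 12.83 and 12.97. PRK3 averaged 7.32 and measured 7.89, 6.46, 8.64, 8.36, 7.08 and 5.51, so that array 6 lay at the floor and arrays 3 and 4 lay well above it. Its SD was above that of 99.1% of the probe sets. LAT61, named as a late anther gene of tomato, was steady at 10.66 ± 0.05. Stig1, a small secreted protein that is abundant in pistils and binds a pollen receptor kinase, stayed between 4.12 and 4.36 in every array, below the floor.

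The tissue label was checked against markers of pollen and other tissues. Of 21 pollen symbols looked for, 8 were measured by a named probe set, and 7 of these were above the floor. Of all 626 genes only 102 (16.3%) were at or below it, so that count by itself says little about the tissue. Among the 7 was lin5, an invertase of flowers and fruit, at 12.46 ± 0.11. None of 12 tapetum symbols and none of 5 symbols listed for the pistil was measured by a named probe set. The tapetum could therefore not be checked, and for the pistil Stig1, which had been listed with the pollen symbols and lay below the floor, was the one gene at hand. Among the symbols for floral organ identity, AG1, the AGAMOUS homologue needed for stamens and carpels, averaged 13.23 ± 0.20, and TAGL1, its close relative, 10.72 ± 0.40. AGL11, known from ovules, averaged 4.16 ± 0.11 and was below the floor in each array. TPI averaged 13.47 ± 0.06 but its symbol is shared by unrelated genes, and it was not counted as a marker.

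Genes listed for green tissue had signal too. Of the symbols for leaf and green tissue, 8 of 25 were measured, and TPx1, whose symbol is ambiguous, was set aside. The other 7 lay above the floor in every array. Only 102 of all 626 genes (16.3%) had a mean at or below it, so the count by itself says little about green tissue. PSBO and PsbQ, extrinsic subunits of photosystem II, averaged 12.10 ± 0.27 and 11.97 ± 0.15. CAB4, which encodes a chlorophyll-binding protein, spread more widely, with 11.40, 10.27, 10.96, 12.22, 9.94 and 11.46. Its relative CAB5 averaged 6.55 ± 0.59, and in both genes array 4 was highest and arrays 2 and 5 were lowest.

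Of 10 fruit symbols 6 were measured, and 3 were at the floor, 2 had a strong signal and LOXB, described further on, ranged from 5.17 to 11.83. Of all 626 genes 102 (16.3%) were at or below the floor, and a count from 6 fruit symbols says little by itself. PG2, the polygalacturonase of ripening fruit, averaged 3.93 ± 0.13, 2A11, an abundant fruit transcript, 4.01 ± 0.07, and EXP1, the ripening expansin, 4.41 ± 0.09. RIN, the MADS-box regulator of ripening, which was not among those symbols, was at 3.82 ± 0.07. By contrast Psy1, a phytoene synthase that makes carotenoids in fruit and petals, averaged 13.54 ± 0.19 by its brightest probe set, and E8, an ethylene-responsive gene of ripening, 11.73 ± 0.35. The other 2 probe sets of Psy1 averaged 8.17 and 7.07, so its level rests on the probe set chosen. In whole anthers, fewer cells of a type and less RNA per cell cannot be told apart for any of these genes.

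**Figure D2:**
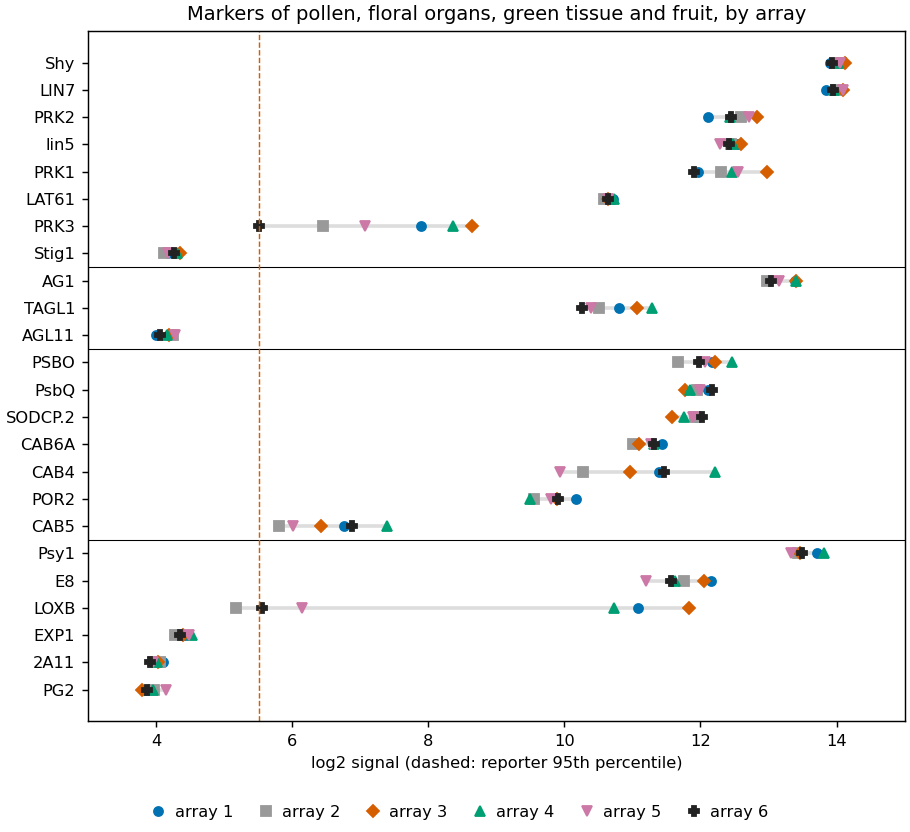
Log2 signal of each M82 array (symbols) for measured markers, grouped from top to bottom as pollen, floral organ identity, green tissue and fruit, with the grey bar spanning lowest to highest array and the dashed line at 5.51. TPI and TPx1 are not drawn. Shy and LIN7 sit near 14 on all arrays, PRK3 and LOXB spread over several units, and PG2, 2A11, EXP1, AGL11 and Stig1 stay left of the line.

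The 20 genes of highest mean ran from 13.63 to 14.43. ChrC, a plastid protein that binds carotenoids and lipids, headed them at 14.43 ± 0.05 (SD, n = 6), with 14.45, 14.46, 14.34, 14.42, 14.43 and 14.49. TD2, a threonine deaminase known for its defensive role in leaves and abundance in flowers, averaged 14.37 ± 0.06, and LEMT1, a metallothionein, 14.30 ± 0.06. For 19 of the 20 the SD was 0.19 or less. The exception was cathDInh, a cathepsin D inhibitor, which measured 12.94 in array 3 and 13.75 to 14.22 in the other 5.

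SAM1 and SAM3, which encode S-adenosylmethionine synthetases, averaged 13.99 ± 0.05 and 13.78 ± 0.13. SAHH, which clears the by-product of methylation reactions, averaged 13.82 ± 0.15 and was lowest in array 5 at 13.54. S-adenosylmethionine is also the precursor of ethylene and of polyamines, and ADC, an arginine decarboxylase of polyamine synthesis, averaged 13.74 ± 0.10.

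Protection against oxygen radicals was represented by SODCC.1, a cytosolic superoxide dismutase (14.03 ± 0.09), and cat1, a catalase (13.99 ± 0.08). PGH1, the glycolytic enzyme enolase, averaged 13.91 ± 0.05, and TCTP, a translationally controlled protein of growing cells, 13.81 ± 0.03. HPL, a hydroperoxide lyase, averaged 13.65 ± 0.04, and CHS2, a chalcone synthase of flavonoid synthesis, 13.63 ± 0.19. The other 3 were TPx1, ER69 and matriochka, between 13.67 and 13.91. CHS2 was the last gene inside the rank at 13.63, and eIF-5A4, just outside, differed from it by less than either gene's SD. Without array 3, 19 of the 20 genes stayed in the rank.

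The 12 genes of lowest mean lay between 3.69 and 4.01, with SDs of 0.07 to 0.13, and each was below the floor. ANT1, a MYB regulator of anthocyanin synthesis, was lowest at 3.69 ± 0.07, with 3.74, 3.77, 3.58, 3.74, 3.70 and 3.64 in the 6 arrays. Another 3 were regulators: THM1, a MYB factor (3.76 ± 0.08), RIN, and LS, the LATERAL SUPPRESSOR gene of branching (3.86 ± 0.09). Enzymes among them were Man4, an endo-mannanase of ripening fruit (3.87 ± 0.09), 20ox-3, a gibberellin 20-oxidase (3.88 ± 0.07), PG2, and CEVI-1, a peroxidase (3.95 ± 0.13). The last 4 were hdc, pip1, 2A11 and psi14A. psi14A, at 4.01, closed the rank just ahead of vis1 at 4.02, and without array 3, 10 of the 12 stayed in it. Values this low have no order among themselves.

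The most stable genes above the median level were TCTP, eIF-5A2, eIF-5A4, PYD1A, HPL, RAN1, LTC, ide, THOX2 and PGH1, with SDs of 0.03 to 0.05. eIF-5A2 and eIF-5A4, forms of a translation elongation factor, kept within 13.38 to 13.46 and 13.59 to 13.67. RAN1, a small GTPase of nuclear transport, kept within 12.58 to 12.70. PGH1 was the last inside at an SD of 0.05, and ChrC was the first outside.

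Most probe sets differed little between the arrays: the median SD was 0.18 and the 95th percentile 0.61. An SD of at least 1 was found for 166 of 10038 probe sets (1.65%) and for 30 of 626 genes (4.79%). Without array 3 the count of probe sets was 131. In 4 equal bins of mean signal from low to high the median SDs were 0.15, 0.21, 0.19 and 0.16, and the bins held 43, 73, 34 and 16 of the 166 probe sets. Probe sets with an SD of at least 1 were thus most frequent in the second bin and least frequent in the highest. The 100 most variable probe sets held 29.1% of the variance around the mean profile.

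**Figure D3:**
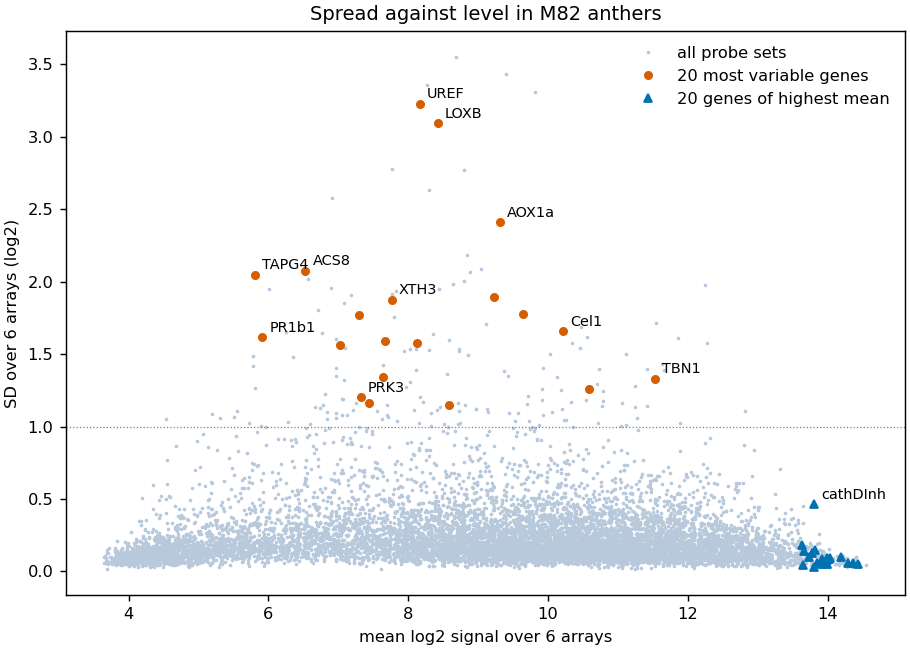
SD over the 6 M82 arrays against mean log2 signal for the 10038 probe sets, with the 20 most variable genes and the 20 genes of highest mean marked and a dotted line at an SD of 1. The most variable genes lie at intermediate levels, and of the brightest 20 only cathDInh rises above an SD of 0.19.

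UREF, whose symbol is that of a urease accessory protein, was the most variable gene. It measured 11.62, 5.38, 11.07, 10.59, 5.27 and 5.06 in arrays 1 to 6 (SD 3.23), so that arrays 2, 5 and 6 were at the floor and arrays 1, 3 and 4 were far above it. LOXB, a lipoxygenase known from ripening fruit, measured 11.08, 5.17, 11.83, 10.72, 6.15 and 5.56 (SD 3.09), with arrays 1, 3 and 4 again highest and array 2 below the floor. AOX1a, the alternative oxidase of mitochondria, measured 11.17, 6.90, 11.51, 11.69, 8.11 and 6.51 (SD 2.41), in the same arrangement but with no array at the floor.

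Of 13 genes of ethylene synthesis, 2 had arrays 1, 3 and 4 highest, ACS8 and ACO6, beside 142 of all 626 genes (22.7%). ACS8, an ACC synthase, measured 8.52, 4.41, 9.12, 7.35, 5.18 and 4.57 (SD 2.07). ACO6, an ACC oxidase, which makes ethylene from ACC, measured 12.95, 11.18, 13.11, 12.85, 12.20 and 11.18 (SD 0.88), and its other 2 probe sets had larger SDs of 1.43 and 1.39. ACO5, another ACC oxidase, had its highest values elsewhere, at 8.33, 6.30, 9.10, 7.97, 8.42 and 6.92 (SD 1.04), with arrays 3, 5 and 1 on top. ACO4, the last of the 3 measured, was highest in array 4. ETR4, an ethylene receptor, had its 3 highest values in the same arrays, within a narrower span of 11.50 to 12.59. Of the 8 ACC synthase genes measured, 6 were at or below the floor and ACS1A and ACS8 were above it. All 5 receptor genes were above it, but only 102 of all 626 genes (16.3%) were not, so that count says little. Both families were picked after their values had been seen.

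TAPG4 and Cel1, wall-degrading enzymes known from abscission, were among the 20 most variable genes and had arrays 1, 3 and 4 highest. That arrangement was found in 6 of 38 cell wall loosening genes and 2 of 9 pectin enzymes, beside 142 of all 626 genes (22.7%). In the same 2 lists, arrays 2, 5 and 6 were highest in 7 and 2 genes, beside 1694 of all 10038 probe sets (16.9%). Array 3 was lowest in 17 and 3 genes. How many of all genes had it lowest was not counted, so these 2 counts have no share beside them. TAPG4, an abscission polygalacturonase, measured 8.47, 4.28, 8.35, 5.19, 4.24 and 4.31 (SD 2.05), clearly above the floor in arrays 1 and 3 alone. TAPG2, a related enzyme with a mean below the floor, measured 5.53 in array 1 and 6.19 in array 3, and 3.76 to 3.92 in the others, with array 4 lowest. Cel1, an endoglucanase of abscission zones, measured 12.20, 8.82, 11.77, 11.10, 8.90 and 8.52 (SD 1.66). Cel3 and CEL8, endoglucanases with arrays 2, 5 and 6 highest, averaged 13.17 ± 0.12 and 12.76 ± 0.22.

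Nucleases and stress genes completed the list. rnalx, a ribonuclease induced in senescence and phosphate starvation, measured 11.54, 8.26, 10.96, 11.25, 7.73 and 8.14 (SD 1.78). TBN1, a bifunctional nuclease, measured 12.81, 10.41, 12.98, 12.39, 10.27 and 10.30 (SD 1.33). In both nucleases the 3 lower arrays lay close together, and so did the 3 higher ones. JA2, a NAC transcription factor induced by jasmonate, measured 8.97, 6.10, 8.78, 9.49, 6.73 and 5.91 (SD 1.59).

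Of 17 defence genes, 8 had arrays 1, 3 and 4 highest, beside 142 of all 626 genes (22.7%). In 3 array 3 was lowest, a count with no share of all genes beside it. The 4 most variable were among the 8. Other lists shared the arrangement, with 11 of 20 carotenoid and isoprenoid, 8 of 17 ethylene signalling and 8 of 19 redox genes. In translation and small GTPases it was found in 0 of 10 and 0 of 8 genes. The chitinase CHI14 measured 10.74, 7.89, 10.18, 11.67, 8.02 and 6.88 (SD 1.89), and the chitinase CHI3 peaked in array 1 at 10.80, with 8.54 as its next value. PR1b1, a pathogenesis-related protein, also peaked in array 1, at 8.55, and was at the floor in arrays 2, 5 and 6. A second probe set of PR1b1 averaged 3.97, with no array above 4.21. PR-P2, another pathogenesis-related protein, ranged from 6.22 in array 5 to 9.56 in array 3.

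Of the 20 most variable genes, 18 had arrays 1, 3 and 4 as their 3 highest. The remaining members were ER21, twi1 (a wound-induced glucosyltransferase), MT3 (a metallothionein), PPCK2 (a kinase of phosphoenolpyruvate carboxylase), PRK3 and the exceptions XTH3 and MTSHP. MTSHP, a mitochondrial small heat shock protein, had arrays 3, 6 and 1 highest. PPCK2 was the last gene inside the rank at an SD of 1.15, with DDTFR8 next at 1.14. Without array 3, 19 of the 20 stayed in the rank, and the SDs of all 20 lay between 1.07 and 3.24.

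**Figure D4:**
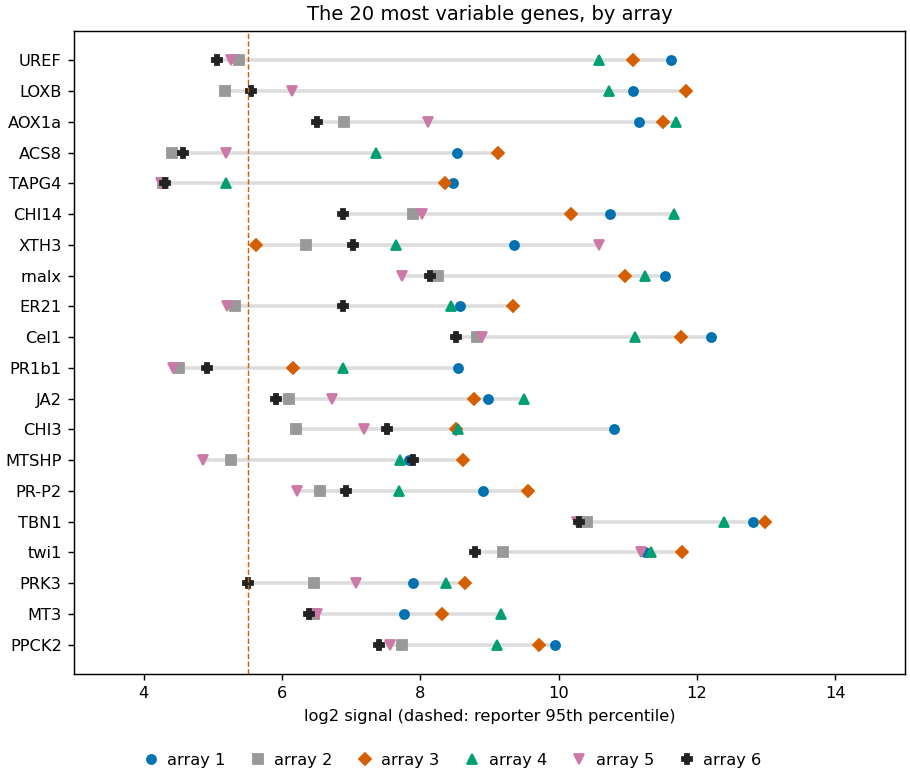
Log2 signal of each M82 array (symbols) for the 20 genes of largest SD, in order of SD from top to bottom, with the grey bar spanning lowest to highest array and the dashed line at 5.51. Arrays 1, 3 and 4 are the 3 highest in 18 genes, and XTH3 has array 3 lowest and array 5 highest.

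The arrangement was then counted over all probe sets, with and without a symbol. Arrays 1, 3 and 4 were the 3 highest in 105 of the 166 probe sets with an SD of at least 1 (63.3%), and in 1608 of all 10038 (16.0%). The opposite arrangement, with arrays 2, 5 and 6 highest, was found in 1694 of all probe sets (16.9%) and in 6 of the 166 (3.61%). Arrays 1, 5 and 6 were highest in 28 of the 166 (16.9%), the second most frequent arrangement there, and in 664 of all probe sets (6.61%). The most variable probe set of all, which has no symbol, measured 11.72, 4.66, 11.68, 11.77, 7.89 and 4.39. The next, also unnamed, measured 12.33, 5.64, 12.51, 12.47, 7.85 and 5.56, with array 5 between the high and the low arrays as before.

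The first principal axis of the deviations held 59.7% of the variance, and the second 17.0%. Scores on the first were 9.64, -22.3, 35.6, 21.0, -17.6 and -26.3 for arrays 1 to 6, so arrays 1, 3 and 4 were on one side. Without array 3 the share of the first axis was 59.8%. The genes whose 6 values were most like those of UREF, out of 101 genes with an SD of at least 0.5, were TBN1, Cel1, rnalx, GABA-TP3 and PPCK2, with Pearson's r of 0.994 to 0.987 over the same 6 arrays. GABA-TP3 encodes a transaminase of gamma-aminobutyric acid. Whether stage, plant, handling or hybridization moved with this axis was not tested, since the labels give none of them per array.

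Of the 8 measured pollen markers, 2 had arrays 1, 3 and 4 highest, beside 142 of all 626 genes (22.7%). These 2 were PRK3 and, within a span of 12.29 to 12.60, lin5. Shy, LIN7 and PRK2 were instead lowest in array 1, which was among the high arrays for UREF. Among green-tissue markers CAB4 was highest in array 4, with array 6 next, and PsbQ was highest in array 6. Of the 7 green-tissue markers kept, PSBO alone had arrays 1, 3 and 4 highest, at 12.17, 12.22 and 12.47, with the other arrays between 11.68 and 12.06. Counts from so few markers do not set pollen or green-tissue genes apart from all genes. The part of cell composition in the shared axis was not tested.

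A smaller group of variable genes had array 3 as its lowest. Of the 30 genes with an SD of at least 1, 5 did so, but how many of all genes did was not counted. Of these 5, 4 encode enzymes that cut and rejoin xyloglucan, a polymer that ties cellulose fibres together. XTH3 measured 9.35, 6.34, 5.63, 7.65, 10.58 and 7.02 (SD 1.88). XTH16 measured 12.13, 11.56, 9.52, 10.75, 12.73 and 11.83 (SD 1.14) by its brightest probe set. Both were lowest in array 3 and highest in array 5, with array 1 next in each.

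In XET4 and tXET-B2 array 3 was again lowest, and arrays 2, 4 and 6 were the 3 highest. XET4 measured 6.87, 7.93, 5.11, 7.06, 6.25 and 7.80 (SD 1.05), and tXET-B2 7.86, 8.88, 6.41, 9.19, 7.78 and 8.78 (SD 1.03). The fifth gene was IAA3, an Aux/IAA repressor of auxin responses, at 4.24 in array 3 and 6.25 to 7.01 in the others. Of the 9 xyloglucan endotransglucosylase genes measured, 4 had an SD of at least 1, beside 30 of all 626 genes (4.79%). Another 3 (XET2, XTH6 and XTH7) were at the floor, beside 102 of all 626 genes (16.3%). This family was picked after its values had been seen. Without array 3 the SD of XTH3 was 1.74, whereas those of XTH16, XET4, tXET-B2 and IAA3 were 0.73, 0.69, 0.64 and 0.28, so 1 of the 5 kept an SD of at least 1.

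Genes measured by several probe sets gave a second reading of the same spread. There were 58 such genes with 97 pairs of probe sets, of which 42 had a Pearson's r of at least 0.9 over the 6 arrays (median 0.83). In the 25 pairs, from 9 genes, where both probe sets had an SD of at least 0.5, 24 reached that r (median 0.996), but requiring both to vary favours pairs that agree. Where neither SD was that large, 15 of 61 pairs reached it (median 0.68), and where 1 of the 2 was, 3 of 11 pairs from 8 genes did (median 0.82). For example, the lower probe set of TBN1 measured 8.17, 8.05 and 7.43 in arrays 1, 3 and 4 and at most 6.02 in the others, so the same 3 arrays were highest as in the brighter one. In other genes 1 probe set varied and the other was near the floor and flat: the SDs were 1.62 and 0.16 for PR1b1 (r of -0.37), 1.03 and 0.07 for IAA3 (r of 0.34) and 1.77 and 0.16 for ER21 (r of 0.87). The spread of these 3 genes therefore rests on 1 probe set each. Whether paired probe sets overlap in their target was not tested.

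The levels of such pairs were far apart. Means of the 97 pairs differed by a median of 1.37, and in 39 pairs by more than 2. The probe sets of TBN1 averaged 11.52 and 6.80. PRO1 gave the widest gap, with 13.58 and 4.77, and the values of its 2 probe sets had an r of 0.30. Ranks by mean and by SD therefore both depended on the probe set for some genes.

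Grouped by function, 14 of 23 gene lists had a median level above that of all probe sets (9.55), and 14 had a median SD above 0.18. The genes, each read by its brightest probe set, had higher medians of their own, 10.04 and 0.20, and against these the counts were 10 and 12 lists. Most of the 626 genes therefore lay above the median level of 9.55, and how many did was not counted. With the mean over all probe sets of a gene, 12 lists had a median level above 9.55. All 10 genes of translation, all 7 of the 14-3-3 proteins and all 8 small GTPases lay above the median level, with list medians of 12.66, 12.50 and 12.56. Their median SDs of 0.14, 0.16 and 0.15 were below that of all probe sets. RPL3, a ribosomal protein, was more variable than most of its list, at 12.93, 12.86, 12.08, 12.42, 13.07 and 12.95, and array 3 was lowest.

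Sugar and starch genes had a median of 11.13, and 18 of 24 lay above the median level. All 4 fructokinases were above it, and so were the invertases LIN7, lin5 and AI of 5 invertase genes. AI, the acid invertase of the vacuole, averaged 13.01 ± 0.44, with 13.30, 12.54, 13.54, 13.39, 12.67 and 12.64, and had arrays 1, 3 and 4 highest. HT1, a hexose transporter, was the most variable of the list, at 9.09, 9.37, 7.78, 8.45, 9.97 and 9.33. Its lowest array was array 3.

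Among 20 genes of carotenoid and isoprenoid synthesis, 16 lay above the median level, as did most of all 626 genes. None was at the floor, where 102 of all 626 genes (16.3%) lay. HDS, of the plastid isoprenoid route, averaged 13.31 ± 0.29. HMGR, which makes mevalonate in the cytosol, averaged 10.27 ± 0.77, and CrtR-b1, a carotene hydroxylase, 10.24 ± 0.64; both had arrays 1, 3 and 4 highest. The phenylpropanoid list was split, with 5 of 9 genes at the floor and CHS2, CHS1 (13.42 ± 0.20) and hqt (12.69 ± 0.61) far above it. hqt, an enzyme of chlorogenic acid synthesis, measured 13.19, 12.18, 13.21, 13.32, 12.16 and 12.07.

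Oxylipin genes had a median of 9.83. HPL was steady, and TomloxE, a lipoxygenase, averaged 13.30 ± 0.17, while LOXB and JA2 carried SDs above 1. AOC, an enzyme of jasmonate synthesis, averaged 11.79 ± 0.20. Of 17 defence genes, 7 were at the floor and 4 had an SD of at least 1, beside 16.3% and 4.79% of all 626 genes. The chitinase CHI17 alone lay above the median level. CHI17 measured 13.15, 12.59, 11.63, 12.88, 12.92 and 13.08, with array 3 apart from the others.

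Of 38 cell wall loosening genes, 9 were at the floor, 18 lay above the median level and 5 had an SD of at least 1. Of all 626 genes, 16.3% were at the floor and 4.79% had an SD of at least 1. EXPA10, an expansin, averaged 12.82 ± 0.16, and 3 of the 12 expansin genes (EXP1, EXP12 and EXPA8) were at the floor. Pectin enzymes had a low median of 5.81, with 4 of 9 genes at the floor. PMEU1, a pectin methylesterase, was the brightest of them at 11.47 ± 0.37, and array 3 stood apart below the others at 10.77. PME2.1, of the same enzyme class, was likewise lowest in array 3, at 6.82, with the other arrays between 7.69 and 8.27.

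Transporters included PT1, a phosphate transporter, at 13.53 ± 0.32 and lowest in array 3 (12.98). ProT1, a proline transporter known from tomato pollen, measured 12.75, 12.30, 13.35, 13.23, 12.79 and 11.76, a mean of 12.70 ± 0.59. AAP2, an amino acid permease, measured 9.39, 8.53, 10.46, 10.37, 8.24 and 7.89. In both of these array 3 was highest and array 6 lowest, as in PRK3, with arrays 1, 2 and 5 in differing order.

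Regulators of flowers and meristems had a median of 7.22, and 7 of 15 were at the floor, beside 16.3% of all 626 genes. TDR6, a MADS-box gene of the class that specifies petals and stamens, averaged 12.27 ± 0.12. TDR4, a MADS-box gene of the FRUITFULL type, measured 11.18, 9.38, 11.79, 11.30, 10.81 and 10.23 (SD 0.86). Cell cycle genes were mostly of intermediate signal, with a median of 8.26, 2 of 13 above the median level and none at the floor. CycA3, an A-type cyclin, averaged 9.64 ± 0.08 and CDKA1, its kinase class, 9.61 ± 0.20.

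Gibberellin genes had 3 of 6 members at the floor, beside 16.3% of all 626 genes. GA20OX1, a gibberellin 20-oxidase, averaged 5.13 but rose above the floor in array 5, at 6.67. SPY, a repressor of gibberellin responses, averaged 10.73 ± 0.10. Heat shock genes included HSC80 (13.39 ± 0.14) and Hsp90-1 (12.57 ± 0.24), chaperones of the HSP90 class, while the small heat shock gene HSP17.4 was under the floor in 5 arrays and at 6.92 in array 6.

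Lipid transfer proteins and nucleases, lists of 3 genes each, had the largest median SDs, 1.04 and 1.33. TSW12 measured 10.37, 9.63, 11.04, 11.87, 9.13 and 9.52, and LE16 8.51, 6.06, 7.57, 7.91, 6.15 and 6.13, both lipid transfer proteins with arrays 1, 3 and 4 highest. ltpg1 averaged 12.52 ± 0.20. RNALE, a ribonuclease related to rnalx, ran another way, at 9.61, 8.96, 7.58, 8.51, 8.62 and 8.96, with array 3 lowest.

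**Figure D5:**
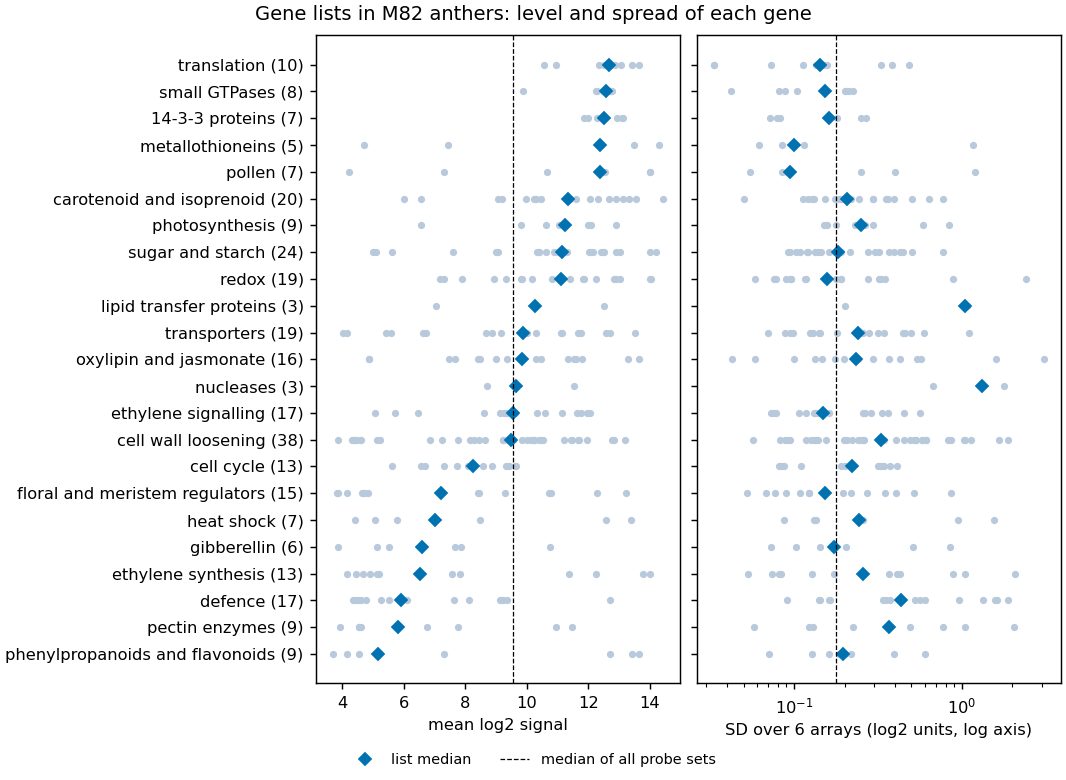
Mean log2 signal (left) and SD over the 6 M82 arrays (right, log axis) of each gene in 23 lists, with the list median as a diamond, the number of genes in brackets and the median of all probe sets as a dashed line (9.55 and 0.18). Lists run from the highest median level at the top, translation, to the lowest, phenylpropanoids and flavonoids.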

How the data were processed

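The 6 M82 arrays were taken from the deposited value table of 21 arrays, which holds 1 log2 value per probe set and array. That the deposited values are log2 was inferred from their span. The submitters' processing notes name the affy package. Its version, the background correction and how probes were summarised and arrays scaled are not stated in what was used here. Per the labels' protocols, Trizol and a column yielded total RNA, which carried a biotin label.

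Arrays were grouped by title. Probe sets with the prefixes AFFX (108) and RPTR (63) were left out of the ranking, and the mean and SD over 6 arrays were computed for the other 10038. Symbols came from the platform's annotation table, which is old. Each of the 909 annotated probe sets has 1 symbol, and the rest of the 10038 have none. A symbol other than LOC plus digits was taken as informative (702 probe sets, 626 genes), and the probe set of highest mean stood for a gene. Genes were named by rule: the 20 highest and 12 lowest means, the 20 highest SDs, the 10 lowest SDs among genes above the median level, the 3 highest means and 2 highest SDs of each of 23 gene lists, and the measured cell type markers. Members and lists were chosen with earlier results of these data known. The gene families counted within the lists (ACC synthases and oxidases, receptors, xyloglucan enzymes, expansins, fructokinases and invertases) were picked after their values had been seen.

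The first principal component was taken from deviations of each probe set from its mean. No test was made, since M82 is 1 group. An array was said to stand apart when Dixon's ratio exceeded the 95% critical value for 6 samples. The ranking code was tested on simulated data. Python 3.11.15, numpy 2.4.6, pandas 2.3.3, statsmodels 0.14.6, R 4.3.3 and limma 3.58.1 were used. Alternatives were quantile and cyclic loess scaling, leaving out each array, other measures of level and spread, a filter on dim probe sets, and other choices of probe set and floor.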

Additional observations from a re-analysis of the deposited data

Results flagged for a closer look

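In 7 of the 145 named genes 1 of the 6 M82 arrays stood apart, its gap to the nearest array, as a share of the whole range, exceeding Dixon's 95% critical value for 6 samples. That is 4.83% of the named genes, beside 526 of all 10038 probe sets (5.24%), and chance flags about 1 group in 20. Array 3 was the one apart in 231 of the 526 probe sets (43.9%), and array 6 in 22. Among the named genes array 3 was low for cathDInh (12.94), for the pectin methylesterase PMEU1 (10.77) and for the chitinase CHI17 (11.63). Array 1 was low for ER69 (13.75) and high for LHA2, a proton pump of the plasma membrane (12.69). The small heat shock gene HSP17.4 was high in array 6 (6.92, with the others between 4.37 and 4.99), and WUS, a regulator of stem cells, was high in array 5 (9.41, with no other array above 8.40).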

How the results depend on the processing

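Scaling the arrays by quantiles or cyclic loess kept 19 and 20 of the 20 genes of highest mean, all 12 of the lowest, 19 and 20 of the 20 most variable, and 166 and 171 probe sets with an SD of at least 1. Leaving out each array kept 19 to 20, 10 to 11 and 17 to 20 of these genes, and 131 to 185 probe sets. By median absolute deviation 15 of the 20 most variable genes were kept, by range 17, and without the dimmest 0.25 of probe sets 16. Arrays 1, 3 and 4 were highest in 17 or 18 of the 20 under scalings and with the probe set of highest SD, alternatives chosen after seeing the data. The share of the first axis was 59.7% and ran from 57.3% to 69.1% when 1 array was left out, the highest without array 1, and the cause was not tested. The floor set the count of dim probe sets: 1480, against 2336 with the highest and 498 with the median reporter, by construction. No mean of the 145 named genes moved by more than its SD under quantile or cyclic loess scaling. Leaving out an array cannot move a mean that far, so the means recomputed in that way are no check. Of 1160 recomputed SDs, 45 moved by over 1.5 times, 20 of them without array 3. Without array 3 the SDs of XTH16, XET4, tXET-B2 and IAA3, all at least 1 with it, were 0.73, 0.69, 0.64 and 0.28. Leaving out 1 array gave 13 to 14 lists above the median level and 12 to 15 above the median SD, and 23 to 25 agreeing pairs. No paired analysis was possible because M82 is 1 group and no comparison was made. Signal over background is not given for single arrays, which limits values near the floor.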
